A study of Canis lupus familiaris with 6 samples.

Results

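The genes described here are 10 neighbours on canine chromosome 21 that were near background in 1 osteosarcoma line, UWKOS1, and mostly bright in the other 5 lines. They are, in chromosomal order, TMEM135, PRSS23, ME3, HIKESHI, PICALM, SYTL2, CCDC89, CREBZF, TMEM126A and TMEM126B. Members were all probe sets whose only gene symbol in the platform annotation was 1 of these names, which gave 10 of 15115 genes with a symbol of their own, and 25 probe sets of 43035 on the array, 42924 of them not controls. The members were chosen by their low values in UWKOS1, so the contrast of UWKOS1 with the other lines is given as a description, with no test. The order of the genes comes from the RefSeq table of assembly UU_Cfam_GSD_1.0, in which all 10 were found by gene identifier. The array names no genome build, so no positions are given.

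Osteosarcoma is a malignant tumour of bone. The study asked which transcripts differ between canine primary osteosarcoma cell lines that can and cannot form tumours in mice. Transplanted cells grew into tumours for UWKOS1, UWKOS3 and UWKOS7 (tumorigenic, n = 3) but not for UWKOS2, UWKOS6 and UWKOS8 (non-tumorigenic, n = 3). RNA came from cultured cells, all treated alike and without a reference line, with 1 Affymetrix array per line. Each line stands for itself alone, since none was arrayed more than once, and a p-value measures the spread between these lines. All values are the deposited log2 expression values. A value of 4.55 was the lower quartile of the UWKOS1 array and 6.05 its median.

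The 10 genes fall into a few roles. PICALM and SYTL2 work in membrane traffic: PICALM helps clathrin coats bend the membrane and retrieves vesicle fusion proteins, and SYTL2 ties RAB27-bearing vesicles to the cell surface. TMEM126A, TMEM126B, ME3 and TMEM135 serve mitochondria or peroxisomes: the TMEM126 proteins help assemble respiratory complex I, ME3 turns malate into pyruvate while making NADPH in the mitochondrial matrix, and TMEM135 is a peroxisomal and mitochondrial membrane protein. HIKESHI carries the chaperone HSP70 into the nucleus after heat stress, and CREBZF is a bZIP protein that restrains other transcription factors. PRSS23 is a secreted serine protease and CCDC89 a coiled-coil protein. EED lies between HIKESHI and PICALM but is no member. It is a core subunit of the Polycomb complex PRC2, which methylates histone H3 and keeps developmental genes off.

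Of the 9 measured markers of osteosarcoma cells, 4 were high in every line. COL1A1, COL1A2, SPARC and VIM lay between 12.28 and 14.60 in all 6 lines. RUNX2, the master regulator of osteoblasts, read 5.84 to 6.52, BGLAP, the osteoblast protein osteocalcin, 5.32 to 6.64, and the osteoblast genes ALPL and IBSP were at or below 5.97 everywhere. UWKOS1 stood apart in some lineage genes: SPP1, the bone matrix protein osteopontin, was 9.76 there and 2.79 to 3.30 in the other lines, and EPCAM, an epithelial adhesion protein, was 7.65, higher by 3.64 than in the next line. The summed log2 value of the 4 measured epithelial markers was 25.6 in UWKOS1, next highest in UWKOS3 and 15.7 to 16.5 in the other 4 lines, and 0 of the 4 passed the filter on dim probe sets. They did not all go 1 way: KRT18 was highest in UWKOS1 (7.44), KRT8 was higher in UWKOS3 (6.64) than in UWKOS1 (6.49), and CDH1 read 3.95 to 4.26 in all 6 lines. The sum of 5 leukocyte markers, 2 of which passed, was 24.5 in UWKOS1 and 26.1 to 32.9 elsewhere, and that of 4 endothelial markers, 2 of which passed, was 26.5 against 23.4 to 25.4. PTPRC, the leukocyte antigen CD45, read 4.86 to 5.17 in the 6 lines. The part of these differences in the low values of the members was not tested. RNA ends also differed: the GAPDH value of the 3' end minus that of the 5' end was 0.78 in UWKOS6 and 0.90 in UWKOS8, against 0.40 to 0.61 in the other lines, with 0.47 in UWKOS1. For actin the same difference was wider, at 2.86 in UWKOS6 and 2.07 in UWKOS8 against 0.64 to 1.11 in the other lines. The correlation of UWKOS1 with the other arrays was 0.927 to 0.963, against 0.934 to 0.984 among those 5.

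All 10 genes had at least 1 probe set that was lower in UWKOS1 than in every other line by at least 1 on the log2 scale. That held for 21 of the 25 member probe sets, where 0.589% of all non-control probe sets met the same criterion. Since the members were chosen for this, the count describes them and supports nothing. The smallest gap among the 21 was 1.30, for the dimmer ME3 probe set, and the largest among the other 4 was 0.10, for the dimmest TMEM135 probe set. The 21 low probe sets ranged from 2.35 to 5.81 in UWKOS1 with a median of 3.90, and 17 of them lay under the lower quartile of the array. For comparison, 15 genes not expected in bone cells, such as INS and GFAP, lay between 3.91 and 6.10 in UWKOS1. The difference between UWKOS1 and the median of the other 5 lines ran from -9.33 to -2.38, with a median of -4.43. In RNA from a whole culture, fewer cells with a transcript and less of it per cell cannot be told apart. With UWKOS1 near background, these differences understate the true ones by an unknown amount. All 18 member probe sets that were at or above a log2 value of 6.07 (the median over all probe sets) in each of the other 5 lines were low in UWKOS1, against 1.22% of such probe sets on the whole array.

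**Figure D1:**
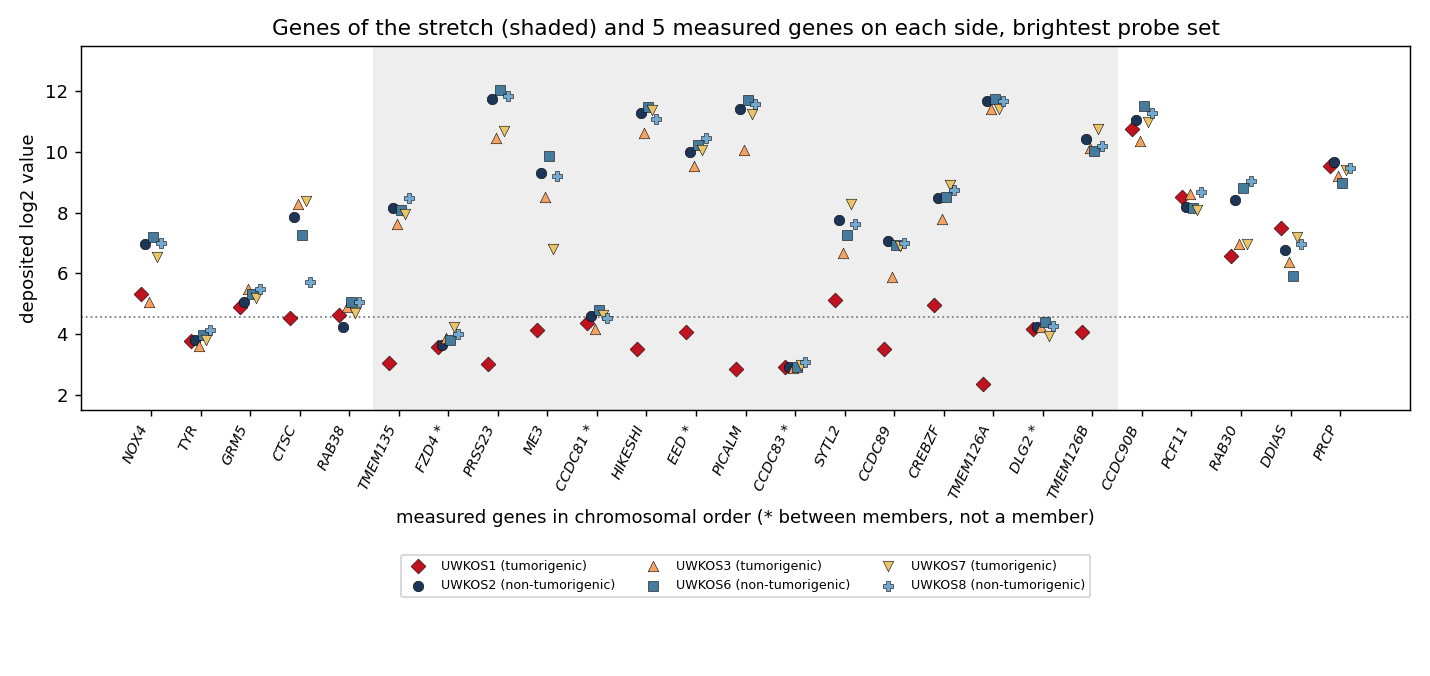
Deposited log2 values (vertical axis) of the brightest probe set of each measured gene in chromosomal order (horizontal axis), for the stretch (shaded) and 5 measured genes on each side. Each point is 1 line, and the dotted line is the lower quartile of UWKOS1 at 4.55. The red diamonds of UWKOS1 fall below the other lines at the 10 members and EED, by 9.07 at TMEM126A but 1.53 at SYTL2. At SYTL2 and CREBZF they stay above the dotted line, and at CCDC90B they lie among the other lines again, at 10.76.

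PICALM (NCBI Gene 476780) had 4 probe sets, all low in UWKOS1. The brightest read 2.84 in UWKOS1, 10.05 in UWKOS3, 11.25 in UWKOS7, 11.43 in UWKOS2, 11.72 in UWKOS6 and 11.60 in UWKOS8. UWKOS1 lay 7.21 below the lowest other line, and UWKOS3 was the lowest of those 5, whose mean was 11.21 ± 0.67 (SD, n = 5). The other 3 probe sets of PICALM read 3.01, 4.33 and 3.92 in UWKOS1 and lay 2.48 to 6.30 below the lowest other line. SYTL2 (485154), the second gene of membrane traffic, read 5.14 in UWKOS1, 6.67 in UWKOS3, 8.30 in UWKOS7, 7.75 in UWKOS2, 7.25 in UWKOS6 and 7.62 in UWKOS8. Its gap of 1.53 was the smallest among the brightest probe sets of the 10 genes. A further SYTL2 probe set read 3.17 to 3.71 in all 6 lines and so could show no loss.

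The complex I assembly gene TMEM126A (608427) showed the largest gap of all. Its brightest probe set read 2.35 in UWKOS1, 11.41 in UWKOS3, 11.42 in UWKOS7, 11.68 in UWKOS2, 11.76 in UWKOS6 and 11.69 in UWKOS8. The 5 other lines were almost level, at 11.59 ± 0.16 (SD, n = 5), and UWKOS1 lay 9.07 below them at the least. The other 2 TMEM126A probe sets read 3.18 and 3.08 in UWKOS1, with gaps of 7.18 and 2.21. TMEM126B (485156), its neighbour and a subunit of the complex I assembly machinery, had 1 probe set. It read 4.08 in UWKOS1, 10.13 in UWKOS3, 10.76 in UWKOS7, 10.43 in UWKOS2, 10.03 in UWKOS6 and 10.20 in UWKOS8, a gap of 5.96. Both genes thus read near background in UWKOS1 and high in every other line.

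ME3 (485151), the mitochondrial malic enzyme, varied most among the other lines. Its brighter probe set read 4.15 in UWKOS1, 8.52 in UWKOS3, 6.80 in UWKOS7, 9.30 in UWKOS2, 9.88 in UWKOS6 and 9.22 in UWKOS8. UWKOS7 was the second lowest line, and the SD of the 5 other lines was 1.19. The dimmer probe set followed the same order at its low end, with 3.72 in UWKOS1 and 5.03 in UWKOS7, and 6.44 to 7.16 in the remaining lines. TMEM135 (607444) read 3.06 in UWKOS1, 7.64 in UWKOS3, 7.97 in UWKOS7, 8.17 in UWKOS2, 8.10 in UWKOS6 and 8.49 in UWKOS8. Its second probe set had a gap of 2.44, and the dimmest read low in all lines, between 3.11 and 3.85.

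HIKESHI (476778), the nuclear carrier of HSP70, had 3 probe sets, all low in UWKOS1. The brightest read 3.50 in UWKOS1, 10.62 in UWKOS3, 11.40 in UWKOS7, 11.29 in UWKOS2, 11.48 in UWKOS6 and 11.08 in UWKOS8. The other 2 read 5.01 and 3.90 in UWKOS1, with gaps of 3.11 and 2.42. CREBZF (476783) read 4.95 in UWKOS1, 7.80 in UWKOS3, 8.92 in UWKOS7, 8.48 in UWKOS2, 8.52 in UWKOS6 and 8.76 in UWKOS8. Its 2 probe sets disagreed: the dimmer one read 6.07 in UWKOS1, 6.01 in UWKOS3 and 6.48 to 6.86 in the other lines, so UWKOS1 was not the lowest. CCDC89 (476782) read 3.51 in UWKOS1, 5.90 in UWKOS3 and 6.92 to 7.09 in the other lines. A second CCDC89 probe set lay between 5.28 and 5.40 in all 6 lines.

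PRSS23 (485150), the secreted protease, had 3 probe sets and was among the brightest members. The brightest read 3.01 in UWKOS1, 10.45 in UWKOS3, 10.71 in UWKOS7, 11.74 in UWKOS2, 12.04 in UWKOS6 and 11.85 in UWKOS8. UWKOS1 lay 7.44 below the lowest other line. The other 2 probe sets read 4.07 and 5.81 in UWKOS1, with gaps of 5.72 and 2.47, and 5.81 was the highest UWKOS1 value among the 21 low probe sets. In each of the 3 probe sets UWKOS3 and UWKOS7 lay below all 3 non-tumorigenic lines.

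**Figure D2:**
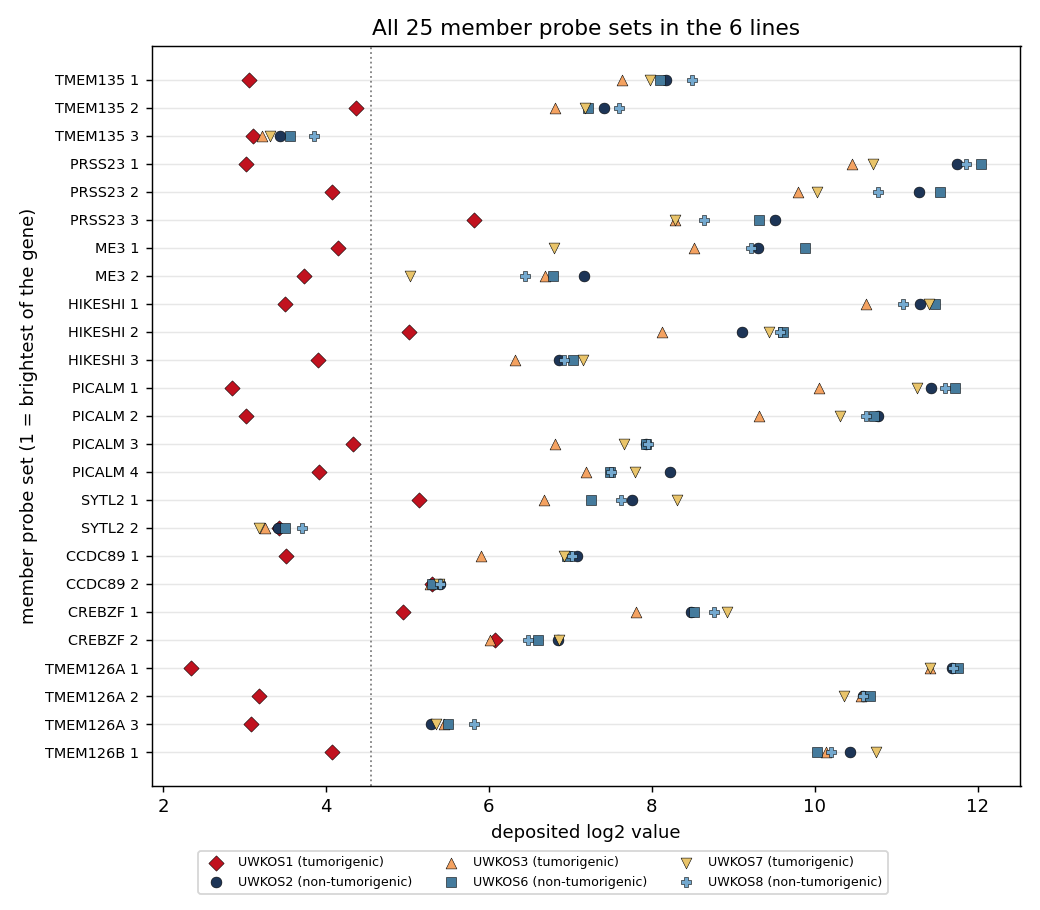
Deposited log2 values (horizontal axis) of all 25 member probe sets (vertical axis, numbered from the brightest of each gene) in the 6 lines, 1 point per line. The dotted line is the lower quartile of UWKOS1 at 4.55; UWKOS1 stands to the left of all other lines by at least 1 in 21 probe sets, and the remaining 4 are TMEM135 3, SYTL2 2, CCDC89 2 and CREBZF 2.

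Between the outermost members lay 5 further measured genes. EED, the Polycomb subunit, shared the pattern on its only probe set, with 4.06 in UWKOS1, 9.56 in UWKOS3, 10.06 in UWKOS7, 10.01 in UWKOS2, 10.23 in UWKOS6 and 10.48 in UWKOS8. The other 4 had levels too low in every line to show a loss. FZD4, a Frizzled receptor, read 3.58 to 4.23, CCDC81 4.16 to 4.81, and the scaffold gene DLG2 3.95 to 4.38. The brightest probe set of CCDC83 read 2.90 to 3.08. Every measured gene of the stretch that was expressed in the other lines was low in UWKOS1 on its brightest probe set. The 10 members among them were chosen for this, so EED alone was free to differ.

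Beyond TMEM126B the next measured gene, CCDC90B, a mitochondrial protein gene, read 10.76 in UWKOS1 and 10.36 to 11.53 in the other lines. PCF11, DDIAS and PRCP were likewise within or above the range of the other lines, and RAB30 read 6.59 in UWKOS1, 6.96 in both UWKOS3 and UWKOS7 and 8.42 to 9.06 in the non-tumorigenic lines. At the other end, beyond TMEM135, the end of the low stretch was less clear. RAB38, GRM5 and TYR were dim in all lines, at most 5.48. CTSC, the lysosomal protease cathepsin C, read 4.52 in UWKOS1, 5.71 in UWKOS8 and 7.28 to 8.38 in the other lines. NOX4, an NADPH oxidase, read 5.33 in UWKOS1, 5.06 in UWKOS3 and 6.54 to 7.20 in the other lines. FOLH1B, the next measured gene after NOX4, read 7.14 in UWKOS1, 4.15 in UWKOS3 and 8.66 to 9.06 in the other 4 lines, so UWKOS1 and UWKOS3 were both below the rest at NOX4 and FOLH1B. Further out lay CHORDC1, at 9.63 in UWKOS1 and 9.21 to 10.08 in the other lines, and 4 measured genes between it and FOLH1B of which NAALAD2 alone was above 6.05 in any line, at 8.29 in UWKOS8. FOLH1B, NAALAD2 and CHORDC1 were picked from the chromosome with their values in view.

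Along the whole chromosome, 130 of 342 measured genes were at or above 6.07 in each of the other 5 lines. Of the 107 such genes after the stretch, UWKOS1 was lowest in 16 and lower by at least 1 in 0, with a median difference from the other lines of 0.02. Of the 13 such genes before it, UWKOS1 was lowest in 7 and lower by at least 1 in 3, with a median difference of -0.96. Those 3 were ARHGAP42, C21H11orf54 and SMCO4, with gaps from 1.19 to 1.73, and were named after their values were seen. On all chromosomes UWKOS1 was the lowest line in 24.3% of 7940 such genes. The 9 members in this set differed by a median of -6.12, a far larger drop than the median of -0.96 before the stretch. Single genes overlapped, since SMCO4 had a gap of 1.73 and the member SYTL2 a gap of 1.53 with a difference of -2.48. CTSC, not among the 13 because UWKOS8 read 5.71, differed by -3.35 with a gap of 1.20.

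**Figure D3:**
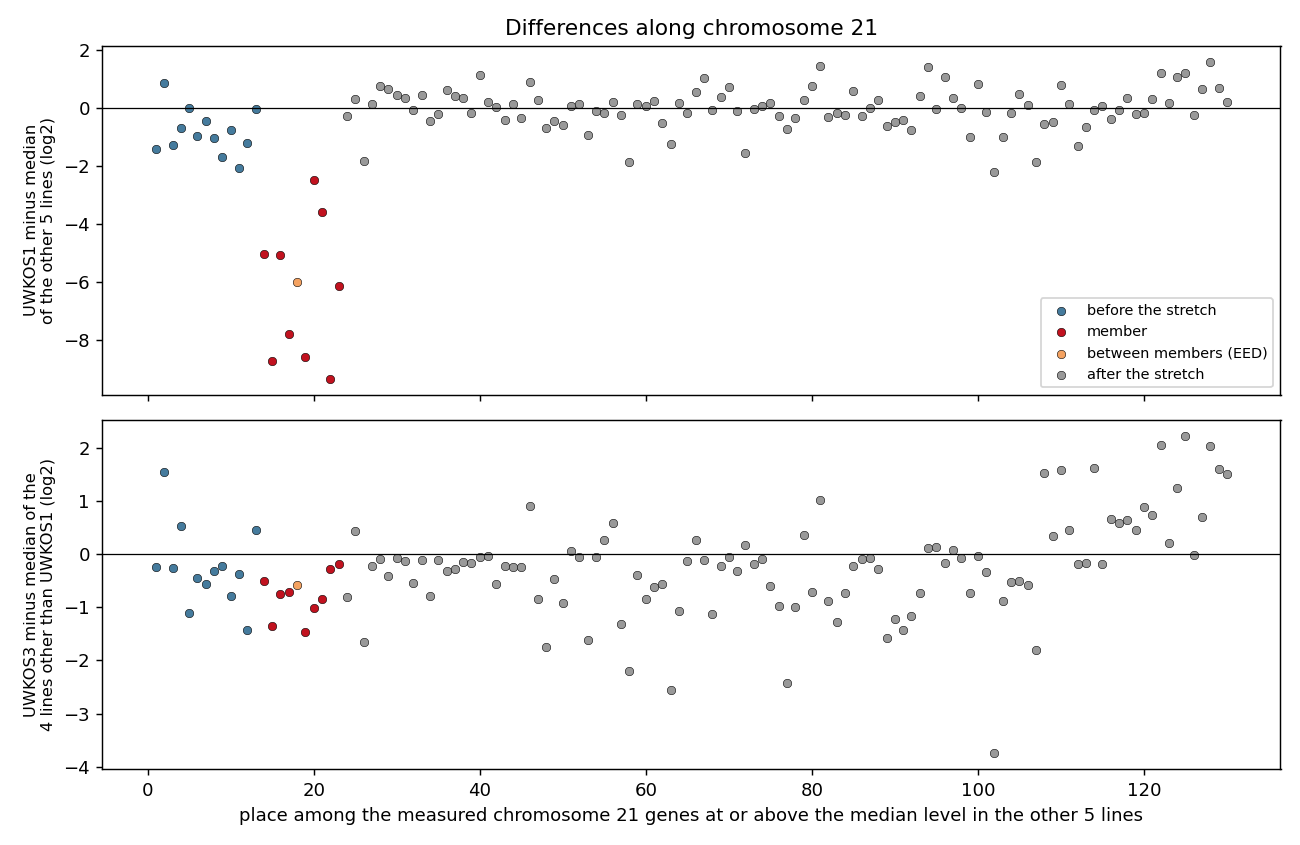
Differences on the log2 scale (vertical axes) for 130 chromosome 21 genes in chromosomal order (horizontal axis), each by its brightest probe set; the upper panel shows UWKOS1 minus the median of the other 5 lines, the lower panel UWKOS3 minus the median of the 4 lines other than UWKOS1. In the upper panel the 9 members and EED fall between -9.33 and -2.48 and the 107 genes after them scatter about 0; in the lower panel all 10 lie below 0.

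The gaps of the members were large on the scale of the genome. These gaps rest on the values that chose the members, so their ranks describe them and support nothing. At the gene level, with the brightest probe set for each gene, 7 genes had a gap of at least 4 between UWKOS1 and the lowest other line. They were TMEM126A, PRSS23, PICALM, HIKESHI, TMEM126B, EED and TMEM135, that is, 6 members and EED from between them. By that gap over the 6 lines, the 5 non-members most like the members were EED (5.49), the RNA-binding protein CELF2 (3.79), the TGF-beta co-receptor ENG (3.30), the peroxidase PRDX2 (3.05) and the secreted serpin SERPINF1 (2.83). CELF2 read 4.35 in UWKOS1 and 8.14 to 11.11 in the other lines, and ENG 3.36 against 6.66 to 8.47. PRDX2 and SERPINF1 read 8.56 and 7.36 in UWKOS1, above the median of its array, so they were lower there without being near background. Low probe sets as such also occurred in the other lines: 0.69% of probe sets in UWKOS3, 0.501% in UWKOS7, 0.238% in UWKOS6, 0.161% in UWKOS2 and 0.123% in UWKOS8 lay at least 1 below all other lines.

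**Figure D4:**
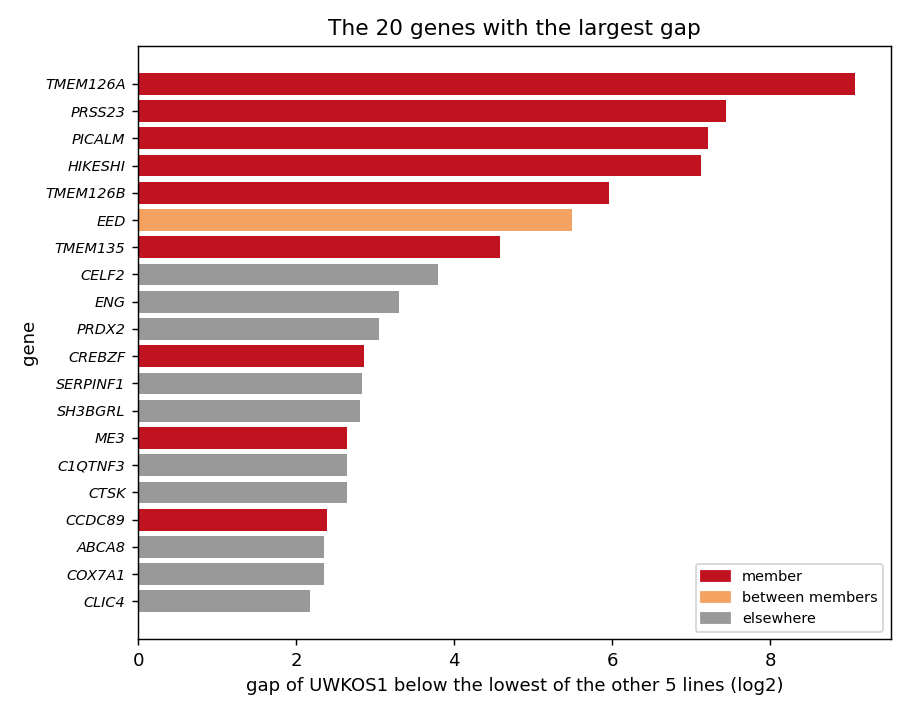
The 20 genes with the largest gap between UWKOS1 and the lowest of the other 5 lines, as bars on the log2 scale (horizontal axis), each gene by its brightest probe set. The 7 longest bars, from 9.07 for TMEM126A to 4.58 for TMEM135, belong to 6 members and EED, and CELF2 follows at 3.79.

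Among the 5 lines in which the members were expressed, UWKOS3 tended to be the lowest. This contrast was not used to choose the members, but it was noticed in the data, and it is given without a test. UWKOS3 was the lowest of the 5 in 15 of the 21 low probe sets and in 18 of all 25, against 28.1% of all non-control probe sets. Its difference from the median of the other 4 lines had a median of -0.72 over the 21 probe sets, from -1.46 for PICALM to 0.07 for ME3. Over all probe sets at or above 6.07 in the 5 lines that median was 0.03. TMEM126A showed little of it, with -0.27, -0.02 and 0.03 on its 3 probe sets, and TMEM126B differed by -0.18. UWKOS3 was also often the lowest on the rest of the chromosome, in 48 of the 107 genes after the stretch and in 9 of the 13 before it, against 25.5% of such genes on all chromosomes.

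Whether the members differ between tumorigenic and non-tumorigenic lines was tested without UWKOS1, since its values chose them. UWKOS3 and UWKOS7 (n = 2) were compared with UWKOS2, UWKOS6 and UWKOS8 (n = 3) by limma over 21462 probe sets, of which 4.99% were called at an adjusted p under 0.05 and 2.39% were called as lower. Of the 25 member probe sets, 21 passed the filter on dim probe sets, with all 10 genes represented. The brightest probe set of PRSS23 fell in the tumorigenic lines, by 1.30 (SE 0.19, limma adjusted p = 0.0383, both tumorigenic lines below all 3 others), and it was the only member probe set called. The next PRSS23 probe set differed by -1.29 (limma adjusted p = 0.0597) and the dimmest by -0.87 (limma adjusted p = 0.133). A share of 1 in 21 is near that of all probe sets, and 5 of the 21 had an unadjusted p under 0.05, against 28.5% of all. The call was lost when UWKOS2, UWKOS6 or UWKOS8 was left out, with limma adjusted p from 0.0702 to 0.141. Limma then called 148, 16 and 15 of all probe sets, so calls were lost across the array. Without UWKOS3 or UWKOS7, which left 1 tumorigenic line, PRSS23 differed by -1.17 and -1.43. The call was also lost when the GAPDH difference between transcript ends entered as a covariate (limma adjusted p = 0.299), a fit in which 2 of all probe sets passed. That difference was highest in UWKOS6 and UWKOS8, and its part in the difference was not tested beyond that fit.

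The other members did not pass. ME3 differed by -1.81 (95% interval -3.16 to -0.46, limma adjusted p = 0.105), with UWKOS3 and UWKOS7 below all 3 non-tumorigenic lines. PICALM differed by -0.93 (-1.87 to 0.01, limma adjusted p = 0.180), CCDC89 by -0.61 (-1.42 to 0.20) and TMEM135 by -0.45 (-0.99 to 0.09). TMEM126A differed by -0.29 (-0.69 to 0.10), HIKESHI by -0.27 (-0.99 to 0.45), CREBZF by -0.23 (-1.12 to 0.66), SYTL2 by -0.06 (-1.31 to 1.19) and TMEM126B by 0.23 (-0.42 to 0.87). Of these intervals, all for the brightest probe set of a gene, only that of ME3 leaves out 0. Other probe sets differed in this: a second one of PICALM left out 0, at -0.91 (-1.71 to -0.11, limma adjusted p = 0.141). The dimmer one of ME3 included 0, at -0.94 (-2.25 to 0.37). EED differed by -0.43 (SE 0.24, limma adjusted p = 0.311). The median over the 21 probe sets was -0.45, against 0.03 over all probe sets tested, and 20 of them were lower on average. Both tumorigenic lines lay below all non-tumorigenic lines in 12 of the 21, against 21.4% of all probe sets. The 12 belong to PRSS23, PICALM, TMEM135, TMEM126A, ME3 and CCDC89, some with several probe sets. Probe sets of 1 gene are not independent, which limits both counts. The brightest probe set of PICALM differed by -0.33 without UWKOS3 and by -1.53 without UWKOS7, each a fit with 1 tumorigenic line. With all 6 lines, where UWKOS1 widens the spread of its group, limma called 0 of 20 member probe sets (2 at an unadjusted p under 0.05), against 12% of all probe sets and 4.74% called as lower; that contrast shares its values with the choice of the members.

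**Figure D5:**
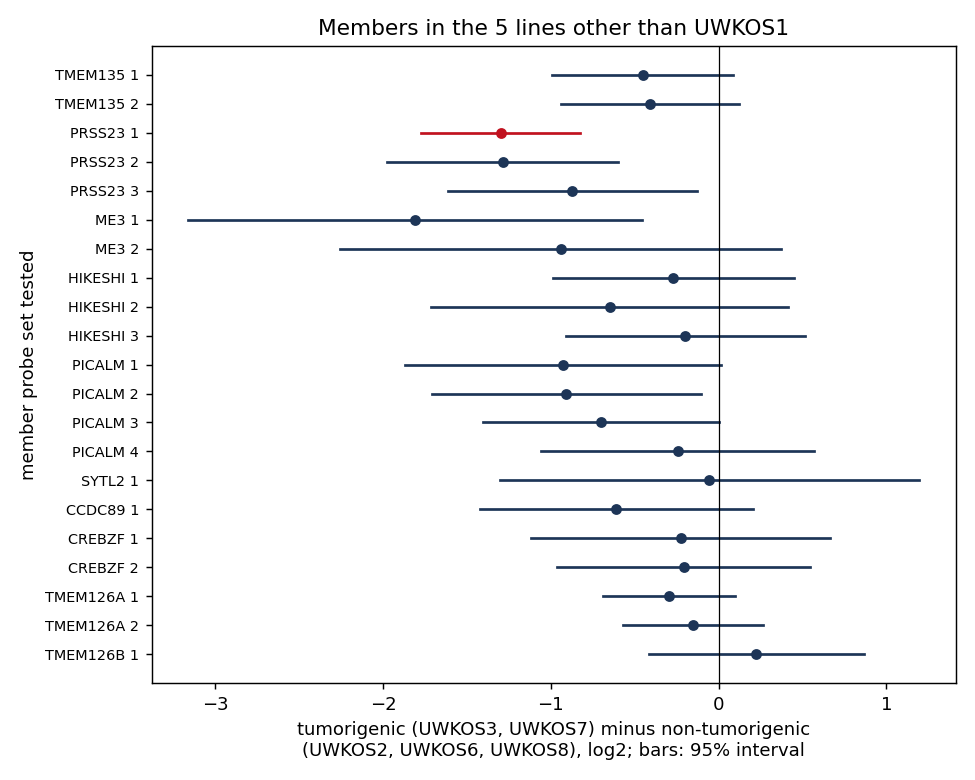
Difference between the tumorigenic lines UWKOS3 and UWKOS7 and the non-tumorigenic lines UWKOS2, UWKOS6 and UWKOS8 (horizontal axis, log2) for the 21 tested member probe sets, with 95% intervals from limma as bars. PRSS23 1, in red, was the only one called, at -1.30, and TMEM126B, at 0.23, the only one above 0.

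Genes that work with the members were followed in lists by role, which the rule did not choose. They were compared between all 3 tumorigenic and all 3 non-tumorigenic lines by limma at the gene level, where 11.8% of 9145 genes were called, 7.3% higher and 4.52% lower. Of 126 measured partners 21 were called, 11 higher and 10 lower. Without UWKOS6 limma called 0 (31 at an unadjusted p under 0.05), without UWKOS8 only TFRC was called, and without UWKOS3, UWKOS1 or UWKOS2 the counts were 7, 9 and 10. Calls over all genes fell as well, from 1081 to 20 without UWKOS6 and 177 without UWKOS8. They numbered 246, 467 and 529 without UWKOS3, UWKOS1 and UWKOS2. Without UWKOS1 the 9 genes called were all among the 21: CLTB, ITSN1, ITSN2, TFRC and VAMP2 of the endocytosis list, HSPA4, HSPA9 and HSPA14 of the HSP70 list, and SYTL1. Limma then called 0 genes in 5 lists: complex I assembly, malate and NADPH, CREB and ATF factors, serine proteases and PRC2. At an unadjusted p under 0.05 by limma they held 9, 4, 4, 3 and 1. Every call in those 5 lists was thus lost without UWKOS1, in a fit where calls over all genes also fell to 467. All calls named below are those with the 6 lines, and the GAPDH ends ratio was higher in UWKOS6 and UWKOS8.

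In clathrin-mediated endocytosis, the process of PICALM, 2 of 27 measured partners rose and 7 fell, with a median difference of -0.34 against 0.03 over all genes. The transferrin receptor TFRC rose by 1.47 (SE 0.15, limma adjusted p = 0.00997), and SNAP91, the paralogue of PICALM best known from neurons, rose by 1.80 (SE 0.30, limma adjusted p = 0.0225). The cargo adaptor DAB2 fell by 3.56, the scaffolds ITSN1 and ITSN2 by 1.34 and 1.04, and the clathrin light chain CLTB by 1.11. VAMP2 and VAMP8, vesicle fusion proteins that PICALM is known to retrieve, fell by 1.51 and 0.68, and HIP1 by 0.83. In UWKOS1 itself 0 of the 27 lay at least 1 outside the range of the other lines, and SNAP91 read 6.47 there, 7.23 in UWKOS3 and 7.39 in UWKOS7. Among 8 measured partners of SYTL2 in RAB27 secretion SYTL1, a paralogue, fell by 1.68 (SE 0.30, limma adjusted p = 0.0253), 0 rose and 7 did not pass. RAB27B, below the filter on dim probe sets, read 6.39 in UWKOS1 and 3.76 to 4.32 in the other lines.

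Of 16 measured complex I assembly factors 3 rose and 0 fell, with a median of 0.54. They were NDUFAF4 (1.60), FOXRED1 (1.34) and DMAC1 (0.93), while TIMMDC1, which joins TMEM126B in the assembly complex, differed by 0.95 without passing (limma adjusted p = 0.0664). Its partners ACAD9, ECSIT and NDUFAF1 read 9.77, 8.71 and 10.04 in UWKOS1, where TMEM126B was at 4.08. ACAD9 and NDUFAF1 were lowest in UWKOS1, by 0.10 and 0.19. Among 13 measured enzymes of malate and mitochondrial NADPH 0 rose and 1 fell, ME1, the cytosolic malic enzyme, by 0.84 (SE 0.18, limma adjusted p = 0.0354), and the median was 0.41. ME2, the mitochondrial paralogue that makes NADH, differed by 0.70 (limma adjusted p = 0.0715) and read 8.83 in UWKOS1. ALDH1L2, a mitochondrial folate enzyme that makes NADPH, read 9.12 in UWKOS1 and 10.82 to 11.19 in the other lines. It was the only partner gene past the filter at least 1 below all other lines in UWKOS1, where 0.995% of genes met that criterion. In the list for peroxisomes and organelle fission 0 of 16 passed by limma (4 at an unadjusted p under 0.05), and FIS1 (-0.74), MFN1 (0.84), ABCD3 (1.19) and PEX5 (0.80) had the smallest p. ABCD2, a peroxisomal fatty acid transporter below the filter, read 7.16 in UWKOS1 and 3.28 to 4.31 in the other lines.

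In the HSP70 list chosen for HIKESHI, 0 of 17 measured genes lay at least 1 below all other lines in UWKOS1, where 0.995% of genes did. Of 17 measured HSP70 proteins and co-chaperones 3 rose in the tumorigenic lines and 0 fell, namely HSPA4 (1.33), HSPA9 (1.44) and HSPA14 (1.12), with a median of 0.40. HSPH1, a large heat shock protein that helps HSP70 release ADP, read 12.96 in UWKOS1 and 10.35 to 11.87 in the other lines. DNAJB1, a J-domain partner of HSP70, read 10.84 against 8.76 to 9.49. These were 2 of 17 genes at least 1 above all other lines in UWKOS1, where 1.33% of genes met that criterion. HSPA8 read 13.57 in UWKOS1, inside the range of the other lines, 13.01 to 13.76.

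Among 15 measured CREB and ATF factors, the family around CREBZF, ATF1 rose by 1.19 (SE 0.19, limma adjusted p = 0.0211), 0 fell and 14 did not pass. XBP1 (limma adjusted p = 0.0861), CREB3 (0.105) and ATF3 (0.211) came next. Among 6 measured secreted serine proteases PLAU, the urokinase, rose by 2.02 and HTRA1 fell by 1.08, while HTRA2, which is mitochondrial, differed by -2.59 (limma adjusted p = 0.0539). Of 8 measured PRC2 partners of EED, SUZ12 rose by 1.35 (SE 0.24, limma adjusted p = 0.0253), 0 fell and 7 did not pass. In UWKOS1, where EED read 4.06, EZH2, the methyltransferase of PRC2, read 8.83, within 8.30 to 9.73 in the other lines, and SUZ12 read 8.19, within 6.33 to 8.25. AEBP2, an accessory subunit, was lowest in UWKOS1 at 10.04, against 10.63 to 11.59, and RBBP4 read 10.97 against 11.36 to 11.82.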

How the data were processed

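Total RNA of 6 canine osteosarcoma lines was hybridised to Affymetrix arrays, 1 per line, per the labels' protocols. The authors deposited log2 values, whose scale was inferred from their range of 1.97 to 14.8. The submitters' processing notes name MAS5 and nothing else; the columns have nearly equal quantiles, so the summary method is not settled here, and no detection calls were used. Values were used as deposited, and 0 columns were left out.

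Of 42924 non-control probe sets, 29254 had 1 gene symbol, 439 several and 13231 none; 27680 were matched by gene identifier to the RefSeq table of UU_Cfam_GSD_1.0, used for names and gene order. 111 control probe sets were left out. Limma 3.58.1 in R 4.3.3 (lmFit, eBayes, Benjamini-Hochberg, threshold 0.05) was fitted to the 21462 probe sets at or above the median by their mean in the fitted lines; the brightest probe set stood for a gene. On simulated data with 200 changed probe sets the fit of 5 lines recovered 6% of changes of 1 and 68% of changes of 2 on the log2 scale, and that of 6 lines 22% and 82%. The members, lists and tests were chosen with earlier results of these data known. Named were all members, the measured genes between them, 5 on each side, up to 4 of each list by smallest p and those at least 1 outside the other lines in UWKOS1, and the 5 non-members with the largest gap; other partner and chromosome genes in the text were chosen after their values were seen. Alternatives were other filters, normalizations and eBayes settings, a transcript-end covariate, and left-out lines. Figures used matplotlib 3.10.9.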

Additional observations from a re-analysis of the deposited data

How the results depend on the processing

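The 21 member probe sets low in UWKOS1 numbered 19 with a gap of at least 2, 22 with any gap, and 21 under quantile normalization, under 75th percentile centring and with any 1 of the other lines left out. Of the members compared without UWKOS1, the count of 1 became 2 (both PRSS23) with the upper-quartile filter and 0 with the GAPDH ends ratio as a covariate (5 at an unadjusted p under 0.05 by limma), with all 6 lines (2) and without both UWKOS6 and UWKOS8 (3), the last an alternative added after the data were seen, in which 0 of all probe sets passed and the spread of UWKOS2, then alone in its group, was taken from the tumorigenic lines; with 1 line left out it ranged from 0 to 3. Where UWKOS3 or UWKOS7 was left out, the lone tumorigenic line was assumed to vary like the others. PRSS23 kept its direction in all its alternatives, and over the brightest probe sets of the 10 genes 139 of 148 alternative values kept their sign. Part of that count was fixed in advance: the other filters and eBayes settings leave a difference unchanged, so its sign could not switch. The fit of all 6 lines also takes in the UWKOS1 values that chose the members. The 21 partner genes called became 0 with the covariate (19 at an unadjusted p under 0.05 by limma), a fit that called 2 of all genes. With 1 line left out they ranged from 0 to 28, and calls over all genes from 20 to 1293. The causes were not tested. No paired analysis was possible because no label links a tumorigenic line to a non-tumorigenic one. The number of arrays limits the precision, and values near background set a floor under each difference.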
